A study of Mus musculus with 8 samples.

Results

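The Hox genes were described here in MEFs (mouse embryonic fibroblasts, cells of connective tissue cultured from embryos) before and after interferon-beta (IFN-beta), an antiviral cytokine. All rows whose symbol was Hoxa, Hoxb, Hoxc or Hoxd followed by a number only were taken, which gave 39 genes of 24015 in the count tables. The 4 RNA-seq libraries came from wild type cells on a C57bl/6 background, taken at embryonic stage E12.5 and used at passages 15 to 18. Of these, 2 libraries were from untreated cells and 2 from cells given 100 units/mL of mouse recombinant IFN-beta for 6 h. Cells of whole embryos can come from many body sites, and the labels name no site and do not say whether the replicates were separate cultures. The p-values thus reflect only how far these libraries vary, and that variation may be technical. The 4 chromatin samples of the series, made with an HA tag on histone H3.3 or as inputs, were not analysed here.

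Hox genes encode homeodomain transcription factors that tell cells where they lie along the body axis. They stand in 4 clusters, and their order along the chromosome follows the order of their expression domains from head to tail. Low numbers mark the anterior, 3-prime end of a cluster and high numbers the posterior, 5-prime end, and genes of the same number in different clusters are paralogs. Fibroblasts in culture are known to keep much of the Hox pattern of the site they came from. Polycomb proteins hold silent Hox genes down and Trithorax proteins keep active ones on, while the TALE homeodomain proteins (Pbx, Meis and Pknox) bind DNA together with Hox proteins.

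Gene counts summed to 18528685 and 24817342 in untreated cells and to 18901845 and 20714161 in treated cells. Levels are given as CPM, a gene's counts scaled to a common library size adjusted by the TMM method. CPM is not adjusted for transcript length, so it is used to compare 1 gene between libraries and to say whether a gene is detected, not to rank genes. The interferon response was present in both treated libraries. Isg15 was at 0.416 and 0.114 CPM untreated and at 115 and 118 CPM treated, Stat2 at 3.17 and 3.71 and then at 98.5 and 130 CPM, Irf7 had 0 and 3 counts untreated and 1728 and 1745 treated, and Mx1 had 0 untreated counts and 3088 and 4972 treated counts. The summed CPM of 10 fibroblast markers ran from 4070 to 4170 in untreated and from 4950 to 5040 in treated libraries. Vim alone was at 2340 and 2280 CPM untreated, while Lum was at 4.21 and 1.21 CPM. Sums for markers of other cell types show detection only, since they hold other genes and do not measure the share of each cell type. They were 19.1 to 28.7 CPM untreated and 21.6 to 24.1 CPM treated for 8 neural genes. For 6 macrophage genes they were 9.25 to 15.9 and 7.5 to 13.3 CPM. For 6 endothelial genes they were 0.935 to 1.06 and 2.02 to 3.13 CPM, and for 6 muscle genes 1.87 to 2.28 and 1.23 to 1.71 CPM. The sums were at most 1.14 CPM for 7 epithelial and 0.156 CPM for 5 erythroid genes. Below 1 CPM in every library were 6 of the 8 neural, 3 of the 6 macrophage, 4 of the 6 endothelial and 5 of the 6 muscle genes. Among these, Sox10 (neural crest glia) had 1 count in each library. Myod1 (muscle), Olig2 (neural), Tie1 and Emcn (endothelial) had 0 in every library, as had the red cell gene Hba-a1. Others were detected untreated, with Map2 (neural) at 25.1 and 16.2 CPM and Ttn (muscle) at 1.82 and 2.24 CPM. The macrophage genes Csf1r and Lyz2 were at 5.14 and 5.19 CPM and at 8.52 and 2.54 CPM. The part of these cell types in the Hox values was not tested.

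Most of the Hox genes were silent in the untreated cells. A gene was called on at 1 CPM or more in both untreated libraries, silent at 3 or fewer counts over both together, and trace in between. By this rule 8 of 39 genes were on, 8 were at trace level and 23 were silent. The genes that were on included Hoxa2 in cluster A, Hoxb2, Hoxb3 and Hoxb4 in cluster B, and Hoxd4, Hoxd8 and Hoxd9 in cluster D. Of the silent genes, 21 had 0 counts in both untreated libraries, and Hoxa9 and Hoxa10 had 2 counts each. A count of 0 over both untreated libraries allows up to 3 counts, or 0.0657 CPM, which covers counting error only. In such bulk RNA, fewer cells that express a gene and less of its RNA per cell cannot be told apart. In all 4 libraries together, 17 genes had 0 counts.

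**Figure D1:**
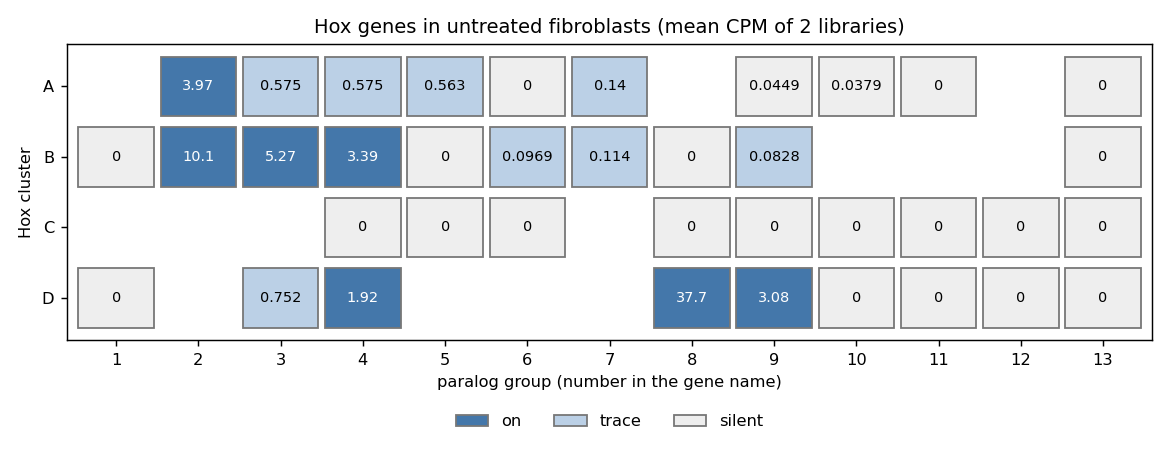
Each box is 1 of the Hox genes described here, placed by cluster (rows) and paralog number (columns); the number is its mean CPM over the 2 untreated libraries, not adjusted for length, and the shade is its state. The boxes that are on lie at Hoxa2, Hoxb2 to Hoxb4, Hoxd4, Hoxd8 and Hoxd9, and the whole of cluster C reads 0.

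The promoters of cluster D show how differently composed the start regions of neighbouring Hox genes are. Hoxd1 and Hoxd12 are silent genes near the ends of that cluster, and Hoxd8 and Hoxd9 are the adjacent genes that are on. Below are the 250 bases before each start, 5-prime to 3-prime on the gene's strand, from RefSeq on build GRCm38.p6, whereas the counts were made on mm9. All 4 lie on the plus strand of chromosome 2, at chr2:74762730-74762979 for Hoxd1, chr2:74704365-74704614 for Hoxd8, chr2:74697513-74697762 for Hoxd9 and chr2:74674763-74675012 for Hoxd12. Capitals mark CG dinucleotides, the sites of DNA methylation, which are dense in CpG islands.
Hoxd1 promoter: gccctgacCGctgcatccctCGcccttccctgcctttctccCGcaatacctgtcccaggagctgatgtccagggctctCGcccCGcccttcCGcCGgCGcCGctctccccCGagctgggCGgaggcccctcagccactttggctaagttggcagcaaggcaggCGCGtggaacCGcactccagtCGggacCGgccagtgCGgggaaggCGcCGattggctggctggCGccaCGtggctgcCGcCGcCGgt
Hoxd8 promoter: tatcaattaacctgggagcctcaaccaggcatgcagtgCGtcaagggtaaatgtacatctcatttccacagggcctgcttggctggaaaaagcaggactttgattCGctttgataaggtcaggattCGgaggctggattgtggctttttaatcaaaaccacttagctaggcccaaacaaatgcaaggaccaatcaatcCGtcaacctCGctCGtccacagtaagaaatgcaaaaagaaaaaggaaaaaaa
Hoxd9 promoter: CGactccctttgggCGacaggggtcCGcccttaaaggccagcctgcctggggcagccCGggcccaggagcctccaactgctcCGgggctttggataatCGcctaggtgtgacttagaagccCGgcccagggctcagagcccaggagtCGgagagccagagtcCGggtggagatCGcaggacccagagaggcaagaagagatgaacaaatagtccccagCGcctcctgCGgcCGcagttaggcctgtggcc
Hoxd12 promoter: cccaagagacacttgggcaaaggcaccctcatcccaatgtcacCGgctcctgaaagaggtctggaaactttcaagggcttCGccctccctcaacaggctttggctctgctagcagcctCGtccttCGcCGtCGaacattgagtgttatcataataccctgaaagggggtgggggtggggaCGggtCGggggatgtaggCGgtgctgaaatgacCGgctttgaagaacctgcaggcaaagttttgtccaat
The stretch held 24 CG dinucleotides in Hoxd1, 6 in Hoxd8, 13 in Hoxd9 and 10 in Hoxd12, so the 2 genes that are on did not share a CG density.

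Promoter windows of 300 bases (250 before and 50 after the start) were found for 22 of the 39 genes, 24 windows in all. They covered 5 of the 8 genes that are on, and Hoxb2 and Hoxb3 were among those without a window. Of cluster C only Hoxc4 had a window. A window was counted as CpG-rich at a GC content of at least 50% and an observed-to-expected CpG ratio of at least 0.6. This held for 0 of 5 windows of genes that are on, 3 of 4 windows of trace genes and 8 of 15 windows of silent genes, against 33.5% of all 32851 promoter windows. The split depends on the threshold, since the ratio was 0.573 for Hoxd9, 0.589 for Hoxa2 and 0.593 for Hoxb4, just short of it, and 0.367 for Hoxd8 and 0.339 for Hoxd4. The motif TGATNNAT, bound by Hox proteins together with Pbx, was searched on both strands. It was in 4 of the 24 Hox windows (those of Hoxa2, Hoxb1 and Hoxb8 and 1 of the 2 of Hoxd11), a share of 16.7%, against 8.85% of all windows. These matches are letters in a window and not shown to be bound.

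For the interferon question the promoters were searched for GAAA, any 2 bases and GAAA again, the core of the interferon-stimulated response element that a complex holding Stat2 and Irf9 binds. The motif was in 0 of the 24 Hox windows on either strand, against 3.44% of all windows. At so low a share, 24 windows are too few for a count of 0 to set the Hox genes apart. Hoxb2 and Hoxb3 had no window and were not searched. It was in the windows of Isg15 and Stat2 and not in that of Irf7. The 250 bases before the start of Isg15, an interferon-induced gene, are shown for contrast, from chr4:156200819-156201068 on the minus strand of GRCm38.p6. Capitals mark its 3 overlapping matches.
Isg15 promoter: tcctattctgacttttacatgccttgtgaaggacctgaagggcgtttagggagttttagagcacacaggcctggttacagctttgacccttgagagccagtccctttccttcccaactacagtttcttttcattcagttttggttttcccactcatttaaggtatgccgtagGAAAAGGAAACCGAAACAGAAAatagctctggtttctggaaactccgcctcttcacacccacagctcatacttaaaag
The absence of these letters says nothing about regions outside the window.

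Cluster A, on chromosome 6, was on at its anterior end. Hoxa2, which sets the identity of the second pharyngeal arch, had 82 and 97 counts in the untreated libraries, or 4.26 and 3.68 CPM. Hoxa3, Hoxa4 and Hoxa5 lay at trace level, with 9 and 18 counts for Hoxa3, the same 9 and 18 for Hoxa4, and 10 and 16 for Hoxa5. Hoxa7 had 1 and 6 counts. Hoxa6, Hoxa11 and Hoxa13 had 0 counts, and with Hoxa9 and Hoxa10 they made 5 silent genes of 11. In RefSeq the span of Hoxa3 overlaps those of Hoxa4, Hoxa5 and Hoxa6, and the strand setting of the counting is not given, so reads shared among these genes could be lost or misplaced.

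Cluster B, on chromosome 11, was on at 3 neighbouring genes. Hoxb2, a hindbrain segment gene, was at 9.3 and 10.9 CPM in untreated cells. Hoxb3 was at 5.61 and 4.93 CPM and Hoxb4, known for its role in blood stem cell expansion, at 3.22 and 3.56 CPM. The RefSeq spans of Hoxb3 and Hoxb4 overlap, as do those of Hoxd3 and Hoxd4 in cluster D, which leaves the division of their reads uncertain. Hoxb1, at the anterior end, had 0 untreated counts, as did Hoxb5, Hoxb8 and Hoxb13. Hoxb6 had 3 and 1 counts, Hoxb7 0 and 6, and Hoxb9 1 and 3.

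Cluster C, on chromosome 15, was silent throughout. Its 9 genes, Hoxc4 to Hoxc13, had 0 counts in both untreated libraries and a single count over all 4 libraries, which fell on Hoxc13 after IFN-beta. The cluster holds trunk and tail genes, among them Hoxc8 and Hoxc9, known from thoracic patterning, and Hoxc10, known from the hindlimb region.

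Cluster D, on chromosome 2, gave most of the Hox counts. Hoxd8 alone had 833 and 847 counts in the untreated libraries, or 43.3 and 32.1 CPM. Its neighbour Hoxd9, known from limb and trunk patterning, was at 3.01 and 3.15 CPM and Hoxd4 at 2.18 and 1.67 CPM. Hoxd3 fell just short of the rule at 0.935 and 0.568 CPM. Hoxd1 had 0 counts in every library, and so had Hoxd10, Hoxd12 and Hoxd13. Hoxd11 had 0 untreated counts and 1 treated count. The edge between Hoxd9 and Hoxd10 was sharp, with 141 pooled untreated counts on one side and 0 on the other. The posterior paralogs 10 to 13, which pattern the hindlimb, hands and feet, tail and genital region, had 4 counts over 12 genes and 4 libraries.

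The share of Hox counts is a property of counts and not of molecules, since transcript lengths differ. Over the untreated libraries cluster D took 61.1 ± 6.31% of all Hox counts (SD, n = 2), cluster B 27.1 ± 3.93%, cluster A 11.8 ± 2.39% and cluster C 0%. Hoxd8 alone took 57.4% and 48.5%. In the IFN-beta libraries the shares were 52.1 ± 1.13% for cluster D, 38.1 ± 1.64% for cluster B and 9.78 ± 0.555% for cluster A. The cluster B share was 24.3% and 29.9% untreated and 36.9% and 39.3% treated, so its groups did not overlap. Those of cluster D, at 65.5% and 56.6% against 52.9% and 51.3%, did not either. The shares of a library add up to a whole, so the cluster D share is tied to that of cluster B and is not a separate result. In CPM, Hoxd8, which held most of the cluster D counts, overlapped between the groups. Among single tested genes, 50.7% did not overlap in CPM. With 2 libraries a group an exact permutation test could not reach the threshold and was not run. The summed Hox level was 75.4 and 66.2 CPM untreated and 69.9 and 74.5 CPM treated, and these ranges overlap.

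**Figure D2:**
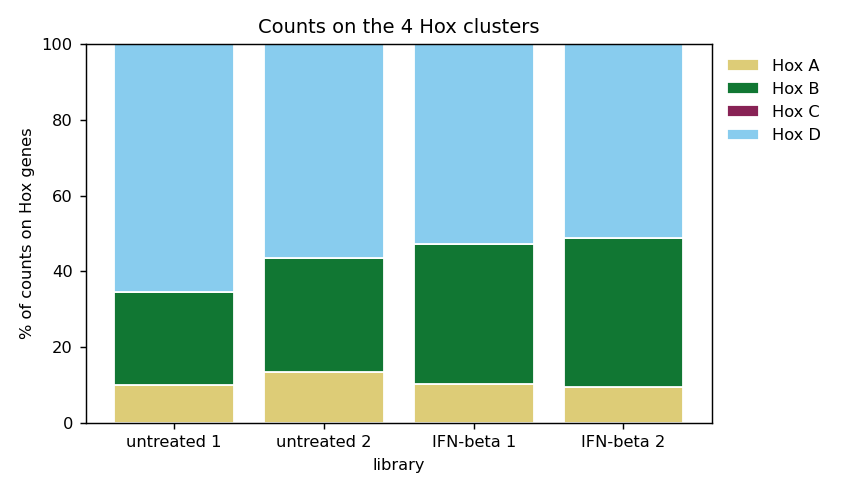
Each bar is 1 library and splits its Hox counts, in percent, by cluster. Cluster B takes 24.3% and 29.9% in the untreated libraries and 36.9% and 39.3% after IFN-beta, and cluster C is too small to see.

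The on genes were the same 8 after 6 h of IFN-beta. In the treated libraries 8 genes were on, 6 at trace level and 25 silent, and 35 of 39 genes had the same state in both groups. These 35 include the 17 genes with 0 counts in all 4 libraries, and the same share over all genes was not computed. The 4 that differed sat near the limit of 3 counts. Hoxa7 went from 7 pooled counts to 3, Hoxb6 and Hoxb9 from 4 to 1 each, and Hoxb8 from 0 to 4. The depth-scaled ratio of treated to untreated counts was 0.519 for Hoxa7, with a 95% exact interval of 0.0865 to 2.27. For Hoxb6 and Hoxb9 alike it was 0.303 (0.00614 to 3.06). These intervals cover counting error only and include no change.

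Of the 39 genes, 10 had enough counts to be tested by edgeR's quasi-likelihood test, and none of the 10 passed at a Benjamini-Hochberg adjusted p below 0.05. Over all 12128 tested genes, 5.23% passed (4.73% higher and 0.495% lower). At an unadjusted p below 0.05 there were 5 Hox genes of 10, against 18.2% of all tested genes. With DESeq2 0 of the 13 Hox genes that received an adjusted p passed. The groups did not overlap for 6 of the 10 (3 higher and 3 lower after IFN-beta), against 50.7% of all tested genes (23.9% higher and 26.8% lower), a share near that background. The median log2 fold change was 0.1 over the 10 and -0.02 over all tested genes. The other 29 members had too few counts, and Hoxa5 entered the test through its untreated libraries alone, where it was higher.

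**Figure D3:**
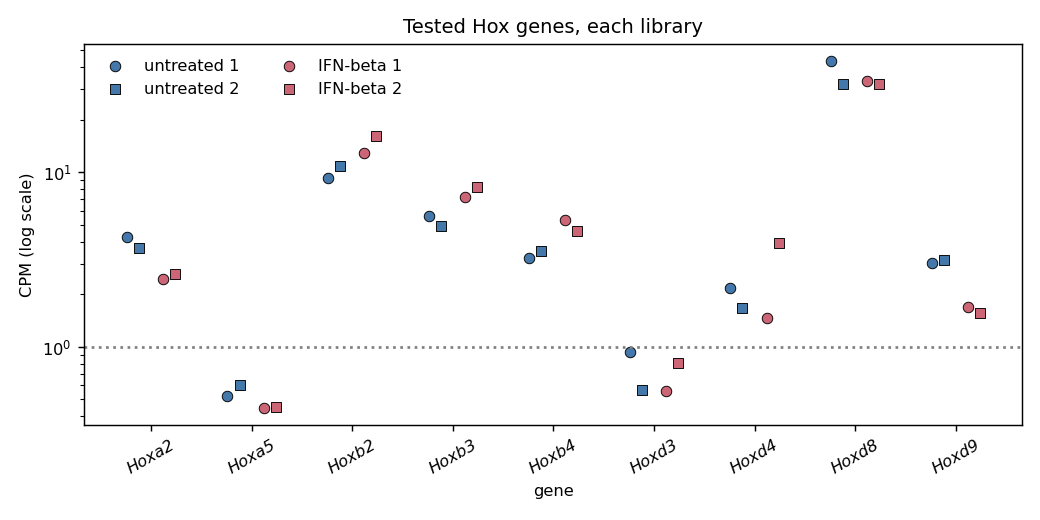
Each point is the CPM of 1 library on a log axis, blue for untreated and red for IFN-beta, circles for replicate 1 and squares for replicate 2; the dotted line marks 1 CPM. Hoxb2, Hoxb3 and Hoxb4 are higher in both red points than in both blue ones, and Hoxa2, Hoxa5 and Hoxd9 are lower.

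Hoxd9 had the lowest p-value. It had 58 and 83 counts untreated and 30 and 31 treated, which is 3.01 and 3.15 CPM against 1.68 and 1.56 CPM. Both treated libraries lay below both untreated ones. The log2 fold change was -0.93 ± 0.27 SE (95% interval -1.54 to -0.32), with an edgeR adjusted p = 0.098, so it did not pass. Scaling by total library size (adjusted p = 0.0499), leaving out the count filter (0.0354) or dropping untreated replicate 2 (0.0451) each made Hoxd9 pass as lower. Its adjusted p ran from 0.0354 to 0.558 over the alternatives, which include DESeq2 at 0.352.

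Its neighbour Hoxd8 was at 43.3 and 32.1 CPM untreated and at 33.2 and 31.9 CPM treated, and the groups overlap. The log2 fold change was -0.21 ± 0.17 SE (95% interval -0.58 to 0.17, edgeR adjusted p = 0.551). The value rests on untreated replicate 1, since it was 0.04 without that library (adjusted p = 0.933) and -0.41 without untreated replicate 2 (adjusted p = 0.0151, which passed). Hoxd4 was at 2.18 and 1.67 CPM untreated and at 1.46 and 3.93 CPM treated. The 2 treated libraries of Hoxd4 lie on either side of the untreated ones, and its log2 fold change of 0.51 ± 0.42 SE (adjusted p = 0.565) became -0.39 without IFN-beta replicate 2 and 1.04 without IFN-beta replicate 1. Hoxd3, at 0.935 and 0.568 CPM untreated and 0.56 and 0.806 CPM treated, was at -0.09 ± 0.45.

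The genes of cluster B that were on had like values. Hoxb2 was at 9.3 and 10.9 CPM untreated and 12.9 and 16.2 CPM treated (log2 fold change 0.52 ± 0.19 SE, 95% interval 0.09 to 0.95, edgeR adjusted p = 0.183). Hoxb3 was at 5.61 and 4.93 CPM and then at 7.23 and 8.21 CPM (0.56 ± 0.2, 0.1 to 1.01, adjusted p = 0.186). Hoxb4 was at 3.22 and 3.56 CPM and then at 5.32 and 4.58 CPM (0.54 ± 0.23, 0.02 to 1.06, adjusted p = 0.256). For all 3 the lower treated library exceeded the higher untreated one, and none passed with all libraries kept, under any scaling, filter, block or tool run. Hoxb2 passed without untreated replicate 2 (0.65, adjusted p = 0.00433) and Hoxb3 without untreated replicate 1 (0.67, adjusted p = 0.0371).

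In cluster A, Hoxa2 was at 4.26 and 3.68 CPM untreated and at 2.46 and 2.62 CPM treated, with both treated libraries lower (log2 fold change -0.64 ± 0.25 SE, 95% interval -1.19 to -0.08, edgeR adjusted p = 0.213). Its adjusted p was 0.0446 without untreated replicate 2, which passed, and 0.0915 to 0.988 elsewhere. Hoxa5, at 0.519 and 0.606 CPM and then 0.448 and 0.453 CPM, was at -0.33 ± 0.46 with an interval of -1.35 to 0.7. The untested Hoxa3 and Hoxa4 each had 27 pooled counts untreated and 19 treated, a ratio of 0.852 (95% exact interval 0.448 to 1.59).

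**Figure D4:**
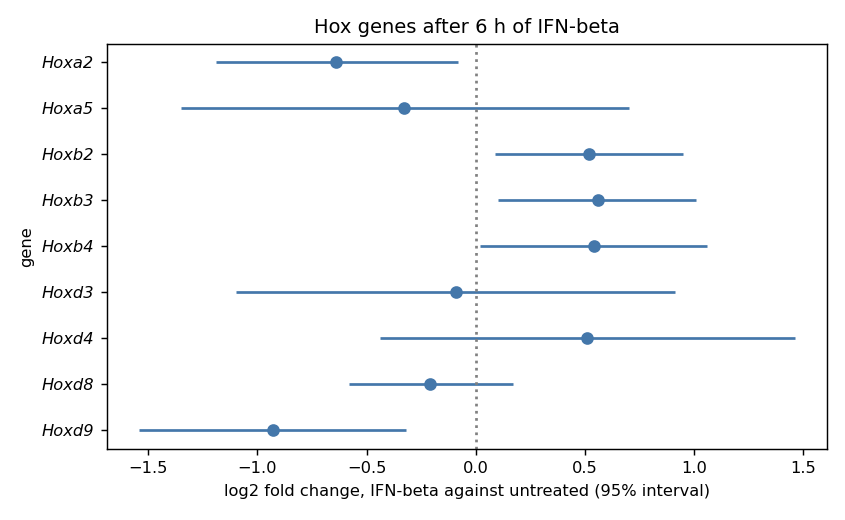
Points are fitted log2 fold changes of tested Hox genes, and lines their 95% intervals before adjustment for multiple tests; right of the dotted line is higher after IFN-beta. The intervals of Hoxb2, Hoxb3 and Hoxb4 lie above 0 and those of Hoxa2 and Hoxd9 below 0, yet none passed after adjustment over all genes.

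Noncoding RNAs and flanking homeobox genes of the clusters were almost all at 0. Of the 16 found, 14 had 0 counts in every library: Hotair and Hottip, long noncoding RNAs of clusters C and A, the flanking homeobox genes Evx1 and Evx2, the antisense RNA Hoxa11os, the provisional symbols 2700086A05Rik, 5730457N03Rik and Gm53, and the microRNA rows Mir10a, Mir10b, Mir196a-1, Mir196a-2, Mir196b and Mir615. Libraries of this kind do not capture mature microRNAs well, so those zeros say little about them. Hoxd3os1, antisense at Hoxd3, had 6, 5, 3 and 5 counts in library order (untreated 1 and 2, then IFN-beta 1 and 2), and Mira had 0, 1, 2 and 1.

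Companion lists held the cofactors and chromatin regulators of Hox genes. Of 10 tested TALE genes 1 rose, beside 4.73% of all tested genes. Tgif1, a repressor of TGF-beta signalling, went from 55.8 ± 1.69 to 85.7 ± 7.53 CPM (SD, n = 2; log2 fold change 0.62 ± 0.13 SE, edgeR adjusted p = 0.0222). It did not pass when scaled by total library size (adjusted p = 0.0634) or without IFN-beta replicate 1 (0.354). The Hox partner Meis2, at 38.3 and 28.4 CPM untreated and 40.1 and 33.7 CPM treated (adjusted p = 0.709), did not pass. The median log2 fold change of the TALE genes was -0.16.

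Of 30 tested Polycomb genes 2 rose and 0 fell, beside 4.73% and 0.495% of all tested genes, so the list was near the background. Its median log2 fold change was -0.06. Among those that rose, Pcgf5, a subunit of a variant PRC1 complex, went from 20.7 and 18.5 CPM to 46.7 and 47.1 CPM (1.26 ± 0.14, edgeR adjusted p = 0.000302). The PRC1 subunit gene Bmi1 was at 240 ± 36.3 and 178 ± 1.45 CPM (adjusted p = 0.125). The histone-binding genes Rbbp4 (-0.24) and Rbbp7 (-0.06) did not pass either. Of 15 tested Trithorax and H3K27 demethylase genes, 0 passed by edgeR or DESeq2 and 0 had an unadjusted p below 0.05, with Psip1 at -0.24, Ash1l at 0.11 and Hcfc1 at 0.31.

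Of the genes for signals that act upstream of Hox genes in the embryo, RNA of some was not detected. The signals themselves were not measured. Of 22 genes of retinoic acid handling and axial signalling, 12 could be tested and 0 passed by edgeR or DESeq2, with 1 at an unadjusted p below 0.05. The retinoic acid receptor gene Rarg was at 25.9 ± 0.271 and 27.6 ± 1.06 CPM, the retinoic acid binding protein gene Crabp1 at 189 and 207 CPM untreated and 232 and 246 CPM treated, and the insulator gene Ctcf at 92.3 ± 5.49 and 99.4 ± 4.74 CPM. Named after their values were seen, Aldh1a2, which makes retinoic acid in the embryo, and the tail-bud factors Cdx2 and Cdx4 had 0 counts in every library. Also named so, Aldh1a1 had 3, 6, 4 and 5 counts in library order and Aldh1a3 had 3, 9, 9 and 8. The gene at an unadjusted p below 0.05 was Cyp26b1, at 3.79 and 4.06 CPM untreated and 2.24 and 2.52 CPM treated. Its log2 fold change was -0.72 (edgeR adjusted p = 0.159).

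Other positional regulators showed both limb or trunk and head genes. By the same detection rule, 14 of 29 limb and trunk genes were on, 4 at trace level and 11 silent, and 8 of 23 head and cranial neural crest genes were on, 3 at trace level and 12 silent. Prrx1, a limb mesenchyme factor, was at 447 and 443 CPM untreated and Tbx15, a factor of trunk dermis and skeleton, at 164 and 121 CPM. The hindlimb genes Pitx1 and Tbx4 had 0 counts in every library and the forelimb gene Tbx5 had 2, 1, 2 and 0. Among head genes Pax3, of neural crest and muscle precursors, was at 7.95 and 6.22 CPM untreated. Also on were Six2 at 4.42 and 6.1 CPM, Lhx6 at 3.32 and 5.04 CPM and Dlx1 at 3.27 and 4.13 CPM. Tfap2a, at 2.08 and 2.01 CPM, and Dlx2, at 1.3 and 2.31 CPM, were on as well. Otx2 and Lhx8 had 0 counts in every library. Pitx1, Tbx4, Tbx5 and the head genes named here other than Pax3 were chosen after their values were seen. 

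After IFN-beta 2 of 17 tested limb and trunk genes rose and 0 fell, beside 4.73% and 0.495% of all tested genes. Grem1, a secreted BMP antagonist, went from 74.9 and 104 CPM to 169 and 161 CPM (log2 fold change 0.87 ± 0.16 SE, edgeR adjusted p = 0.00971). Twist1, a mesenchyme factor, went from 50.1 and 34.6 CPM to 70.7 and 69 CPM (0.72 ± 0.18, adjusted p = 0.0437), but missed the threshold when scaled by total library size (0.0807) and without IFN-beta replicate 1 (0.0632). Prrx1 (adjusted p = 0.198) and Tbx15 (adjusted p = 0.976) did not pass. Of 8 tested head genes 1, not reported here by name, rose and 0 fell. The head gene Pax3, at 11 and 8.81 CPM treated (0.49 ± 0.21, adjusted p = 0.26), did not pass. The medians were 0.25 and 0.4 for the lists, beside -0.02 over all tested genes.

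**Figure D5:**
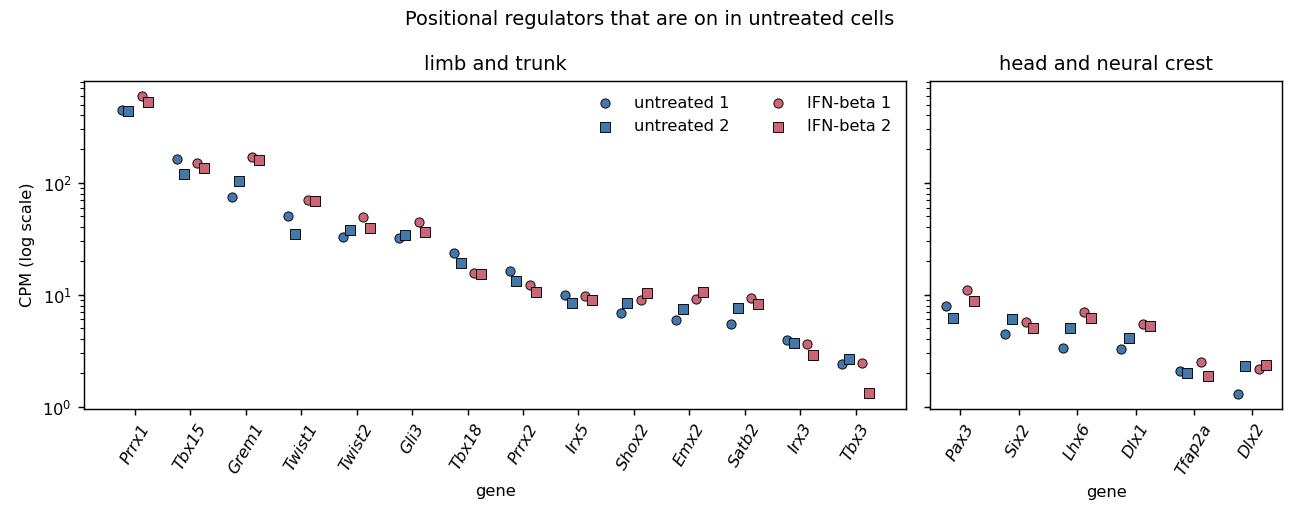
Points are the CPM of single libraries on a log axis for positional regulators that are on in untreated cells, 14 of limb and trunk (left) and 6 of head and neural crest (right), blue for untreated and red for IFN-beta. Grem1 and Twist1 have both red points above both blue ones, while Tbx15 overlaps between the groups.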

How the data were processed

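For each library the authors deposited a table of raw read counts by gene symbol, neither normalized nor pooled. TopHat2 2.0.13, HTSeq 0.7.2 and build mm9 are named in the submitters' processing notes; the annotation, strand setting and overlap mode are not given in the sources used here. The 5 summary lines that name no gene were left out. They and the gene counts split the records, with 38.7% to 42.7% on genes. Outside genes were 27.2% and 28.3% untreated and 21.9% and 23.7% treated. Not unique were 33% and 29.8% untreated and 34.9% and 37.2% treated. Ambiguous were 0.535% and 0.526% untreated and 0.471% and 0.466% treated. These shares, other than that on genes, did not overlap between the groups, and their part in the fold changes was not tested.

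All genes were fitted with edgeR 4.0.16 in R 4.3.3 (quasi-likelihood F test, TMM, group as the only term, filter at a minimum count of 10 and total of 15), with p-values adjusted over all 12128 tested genes. The standard error is the log2 fold change divided by the square root of F, and intervals use it. The procedure was tested on simulated data in which all genes and libraries shared the same spread beyond counting error. In the real data the replicates differed by a chi-square per gene of 34.2 untreated and 12.1 after IFN-beta. The simulation thus does not show how the test performs under that spread. The members and lists were chosen with earlier results of these data known. Named were all Hox genes and, from each companion list, the called members and the 3 with the highest level; exceptions are marked, and a few genes that enter the counts are not reported here by name. Alternatives were DESeq2 size factors, total library size, no count filter, DESeq2 1.42.0, a replicate block, other limits for on, and each library left out. The reference tables give gene spans and no transcript lengths, so no value per length was made.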

Additional observations from a re-analysis of the deposited data

How the results depend on the processing

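The count of 8 Hox genes that are on was 10 at a limit of 0.5 CPM and 6 at 2 CPM, and stayed at 8 with total library size and without either untreated library. An RPKM limit was not run, for want of transcript lengths. The count of 0 called Hox genes was also 0 with DESeq2 size factors, DESeq2 and the replicate block, and 1 (Hoxd9) with total library size and without a count filter. Without single replicates it ran from 0 to 4, the 4 coming without untreated replicate 2 (Hoxa2, Hoxb2, Hoxd8 and Hoxd9). Without untreated replicate 1 it was 1 (Hoxb3). In such fits the lone library is assumed to vary like the other group. The total of 634 called genes was 1244 without a count filter and ran from 494 to 3613 without single replicates; dropping untreated replicate 2 gave the 3613 and dropping untreated replicate 1 gave 1088. The lower genes numbered 60, but 350 (beside 478 higher) with total library size, where the median over all genes was -0.16 against -0.02, 381 without a count filter, 155 with the replicate block, 95 with DESeq2, and from 24 (without IFN-beta replicate 1) to 1728 (without untreated replicate 2) when single replicates were dropped. The replicate block gave 847 calls; replicate differences in the groups correlated at -0.0334, so the numbers do not show a pairing. The log2 fold change turned sign without single replicates for Hoxd3 (-0.44 to 0.3), Hoxd4 (-0.39 to 1.04) and Hoxd8 (-0.41 to 0.04).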

Other observations

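Hoxa3 and Hoxa4 had the same counts in all 4 libraries (9, 18, 9 and 10). Of 709 genes in the tables with a total of 30 to 60 counts, 14 shared all 4 counts with another gene, these included. Whether the same reads were counted for Hoxa3 and Hoxa4 was not tested.

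Among the 6 endothelial markers, Cdh5, the cadherin of endothelial junctions, went from 0.104 and 0.227 CPM to 1.34 and 0.957 CPM. Its adjusted p was 0.014 by edgeR, but 0.0572 by DESeq2. Cdh5 entered the test through its IFN-beta libraries alone, where it was higher, so its p-value is not separate support for a rise. Kdr was at 0.519 and 0.682 CPM untreated and at 1.79 and 1.01 CPM treated, and did not pass (edgeR adjusted p = 0.177). Tek went the other way, with 5, 2, 0 and 0 counts in library order. Tie1 and Emcn had 0 counts in every library and Pecam1 had 1, 2, 0 and 1.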
